A study of Rattus norvegicus with 6 samples.

Results

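Genes of renal calcium transport and vitamin D metabolism were examined in the renal cortex of rats given 2-amino-4-nitrophenol, a nitroaromatic amine, or corn oil. The set holds 10 genes: Calb1, S100g, Trpv5, Trpm6, Slc8a1, Atp2b1, Casr, Vdr, Cyp24a1 and Cyp27b1. A probe was taken for one of these genes where the array design tied it to a RefSeq transcript of that gene, and 19 of the 61657 non-control probes, for 9 of the 10 genes, met this rule. No probe was matched to Trpm6, which was not analysed here. The animals were male Sprague-Dawley rats, 5 weeks old at purchase. One group of 3 was given 2-Amino-4-nitrophenol at a daily dose of 750 mg/kg and the other group of 3 was given Corn Oil, each for 4 weeks, and each animal gave 1 single-colour array of total RNA from renal cortex. Values are log2 levels of the scanner's processed signal relative to the 75th percentile of the same array, and a difference is the treated mean minus the corn oil mean on that scale. Levels of different probes are not comparable with each other, since probes differ in how well they bind.

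In the distal convoluted and connecting tubule, calcium enters from the urine through the channel encoded by Trpv5, is carried across the cell by the calbindins encoded by Calb1 and S100g, and leaves toward the blood through the exchanger encoded by Slc8a1 and the pump encoded by Atp2b1. The hormonal form of vitamin D is made in the proximal tubule by the enzyme encoded by Cyp27b1 and degraded by the enzyme encoded by Cyp24a1, and it acts through the receptor encoded by Vdr. The calcium-sensing receptor, encoded by Casr, is found mainly in the thick ascending limb.

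All 19 probes were well above background on all 6 arrays, and all were kept for testing. Between 37990 and 40848 non-control probes were well above background on treated arrays, against 41986 to 43724 on corn oil arrays, and no probe was saturated. With 3 arrays per group, the number of arrays limits the precision of every value. Markers of the proximal tubule (7 of 7 listed), podocytes (4 of 4), principal cells (6 of 6) and intercalated cells (5 of 5) were well above background on all 6 arrays. Pth, the parathyroid hormone gene, reached that level on no array. Corn oil replicates 1 and 3 shared 1 slide with the 3 treated arrays, the corn oil arrays in one row and the treated arrays in the other, so that row and group cannot be told apart there. Corn oil replicate 2 was alone on another slide.

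The calcium and vitamin D probes leaned to lower signal in treated cortex, but none passed the test. The genes were chosen with earlier results of these data known. The shares over all probes below are thus a background, not a test of the set. In whole cortex, fewer cells of a type and less RNA per cell cannot be told apart. Of the 19 probes, 0 passed at an adjusted p under 0.05 (limma, Benjamini-Hochberg over 40894 probes; 0% of all probes tested), and the lowest adjusted p among them was 0.177. At an unadjusted p under 0.05, 8 of the 19 were lower, against 9.43% of all probes tested, and 0 were higher, against 11.3% (20.7% in either direction). The difference was below 0 for 18 of the 19 probes, against 50.2% of all probes tested, with a median of -0.36, against -0.0013. For 9 of the 19 every treated array lay below every corn oil array, against 12.9% of all probes tested, and for 0 every treated array lay above, against 17.1% (30% in either direction). These probes are not independent: 7 of the 8 belong to Slc8a1 and Atp2b1, which have 4 probes each. Of the 9 genes, 3 had a probe at an unadjusted p under 0.05 (Slc8a1, Atp2b1 and Cyp27b1) and 4 had a probe whose groups did not overlap (those and Trpv5); a gene with more probes has more chances to enter such a count. With the brightest probe of each gene alone, 2 of the 9 were lower at an unadjusted p under 0.05, against 6.66% of genes, and 2 were lower without overlap, against 10.1%. By that probe the difference was below 0 for 8 of the 9, against 42.6% of genes, with a median of -0.25, against 0.04. Among all 40894 probes, 8473 had an unadjusted p under 0.05, of which 45.5% were lower in treated cortex; that share was 23.1% after normexp background correction, 56.7% with quantile normalization, 37.4% with scaling on the median and 97.0% with spike-in scaling, which put the median difference of all probes at -0.32.

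The treated arrays did not contribute equally. On treated replicate 1, 9 of the 19 probes lay below all corn oil arrays and 4 above all of them. On treated replicates 2 and 3, 16 of the 19 lay below all corn oil arrays, and 0 and 2 lay above. Of all probes tested, 29.7%, 36.9% and 35.0% lay below all corn oil arrays on treated replicates 1, 2 and 3, and 32.6%, 39.7% and 35.4% lay above all of them. Treated replicate 1 had the highest of the 3 treated values for 15 of the 19 probes.

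**Figure D1:**
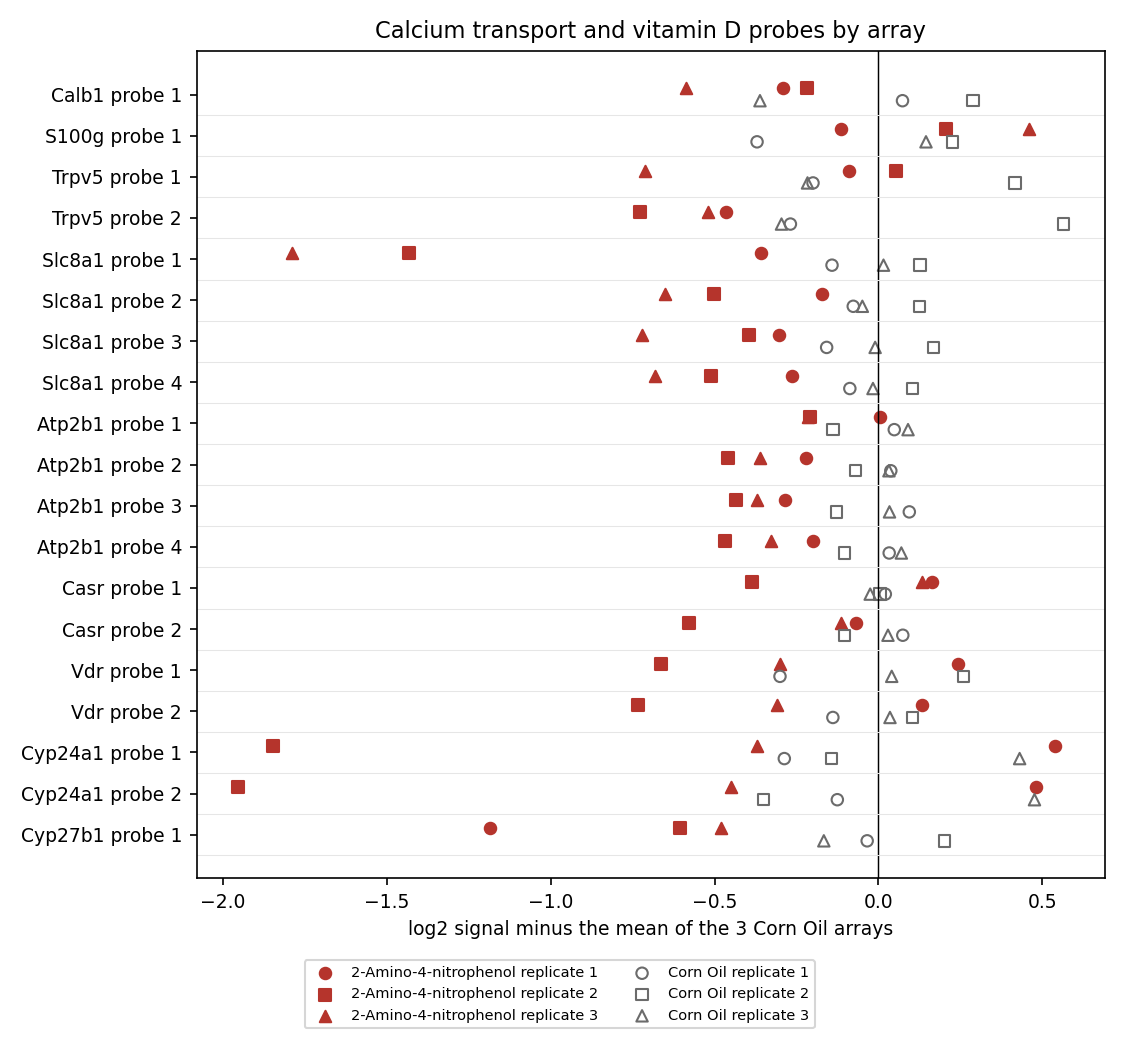
Log2 signal of each of the 19 probes on each array (x axis), minus the mean of the 3 corn oil arrays for that probe; filled symbols are treated arrays, open symbols are corn oil arrays, and the shape gives the replicate number. The 4 probes of Slc8a1, 3 probes of Atp2b1, the probe of Cyp27b1 and probe 2 of Trpv5 have all filled symbols to the left of all open ones.

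Slc8a1, the sodium-calcium exchanger that moves calcium out of the cell, had lower signal in treated cortex on all 4 of its probes, numbered from the brightest. Probe 1 (A_44_P323285) had log2 levels of -1.43, -2.51 and -2.86 on the treated arrays in replicate order, against -1.21, -0.95 and -1.06 on corn oil replicates 1, 2 and 3. Treated replicate 1 was close to the corn oil arrays, while treated replicates 2 and 3 were well below them. The difference was -1.19 ± 0.36 (SE, limma, n = 3 per group; 2.29-fold lower; adjusted p = 0.186); a block for slide gave -1.13. The other 3 probes had differences of -0.44, -0.47 and -0.48, each with groups that did not overlap and with adjusted p between 0.177 and 0.196 (limma). After normexp background correction they were -0.28, -0.21 and -0.20, and probes 3 and 4 no longer had an unadjusted p under 0.05 (0.0880 and 0.0651, limma). Probe 4, with the lowest p of all 19 probes (A_64_P008607; unadjusted p = 0.0095, limma), had levels of -2.38, -2.62 and -2.79 on treated replicates, against -2.20, -2.01 and -2.13 on corn oil replicates. All 4 probes ranked the treated arrays in the same order, with replicate 1 highest and replicate 3 lowest. Leaving out single arrays moved the difference of probe 1 between -1.61 (without treated replicate 1) and -0.90 (without treated replicate 3).

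The probes of Slc8a1 differed in the size of the change. Relative to the mean of the other 3 probes, probe 1 was lower by 0.73 on the log2 scale in treated cortex (a difference of changes of -0.73). Taken from the corn oil mean, probe 1 minus the others stood at -0.11, -0.96 and -1.11 for treated replicates 1, 2 and 3, against -0.03, -0.01 and 0.04 for corn oil replicates 1, 2 and 3. The groups did not overlap, and the exact permutation test over arrays (two-sided) gave p = 0.1, the smallest that 3 arrays against 3 allow. All 4 probes are tied to the same RefSeq transcript, and the transcript region that each binds was not analysed here.

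Atp2b1, a plasma membrane calcium pump, had lower signal on all 4 probes, by smaller amounts and with little spread between arrays. Probe 3 (A_44_P245665) had levels of 1.02, 0.87 and 0.94 on treated replicates, against 1.40, 1.18 and 1.34 on corn oil replicates. The highest treated array lay below the lowest corn oil array, and each group spanned less than the distance between the means. The difference was -0.36 ± 0.10 (SE, limma, n = 3 per group; 1.29-fold lower; adjusted p = 0.180); a block for slide gave -0.43. Probes 2 and 4 had differences of -0.35 and -0.33, again without overlap (adjusted p = 0.183 and 0.196, limma). Probe 1, the brightest, had -0.14 ± 0.11, with groups that overlapped. Taken from the corn oil mean, probe 1 minus the mean of the others was 0.24, 0.24 and 0.14 on treated replicates, against -0.01, -0.04 and 0.05 on corn oil replicates (exact permutation test, two-sided, p = 0.1, the smallest possible here). Bright probes in general were higher in treated cortex: probes of the same decile of mean signal as Atp2b1 probes 1 and 2 had a median difference of 0.12, and those like probe 3 had 0.05.

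**Figure D2:**
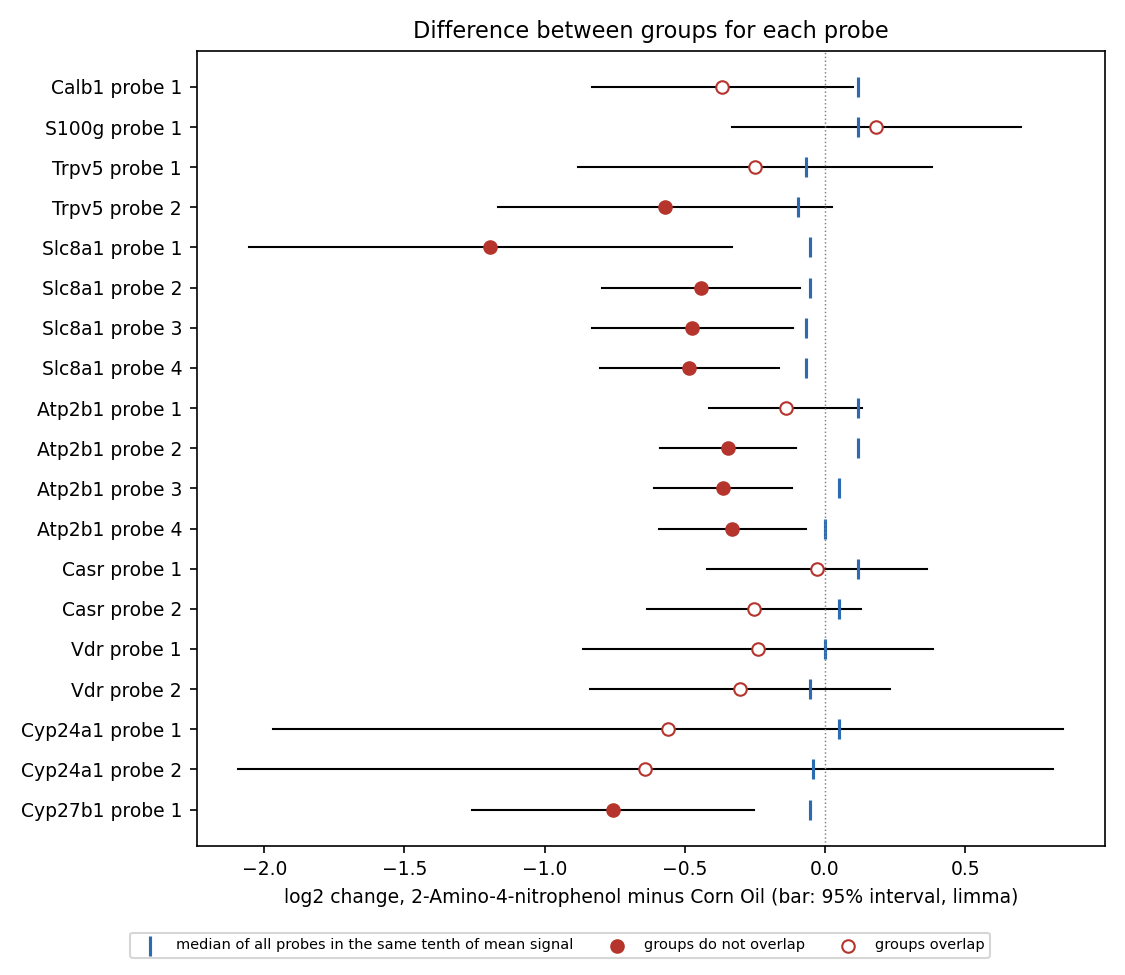
Difference between treated and corn oil arrays in log2 signal for each probe (point) with its 95% interval from limma (bar); filled points mark probes whose groups do not overlap, and the blue tick is the median difference of all probes in the same decile of mean signal. The intervals of 8 probes, all of Slc8a1, Atp2b1 and Cyp27b1, lie below 0, and S100g is the 1 probe above 0.

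Entry and buffering genes were less clear. Trpv5, the epithelial calcium channel, had 2 probes. Probe 2 (A_44_P228928) had levels of -4.19, -4.45 and -4.24 on treated replicates, against -3.99, -3.16 and -4.02 on corn oil replicates. The groups did not overlap, and corn oil replicate 2 was well above the other arrays. The difference was -0.57 ± 0.25 (SE, limma; adjusted p = 0.251) with all arrays, -0.29 without that array and -0.068 after normexp background correction. Probe 1 had -2.34, -2.20 and -2.96 on treated replicates, against -2.45, -1.83 and -2.47 on corn oil replicates, a difference of -0.25 ± 0.26 with groups that overlapped, and of -0.04 without corn oil replicate 2.

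Calb1, the larger calbindin of the tubule, had levels of 2.12, 2.20 and 1.83 on treated replicates, against 2.49, 2.70 and 2.05 on corn oil replicates. Corn oil replicate 3 lay within the treated range, and the difference was -0.37 ± 0.19 (SE, limma; 95% interval -0.83 to 0.10; adjusted p = 0.318), or -0.22 with a block for slide. S100g, the smaller calbindin, had 2.14, 2.46 and 2.71 on treated replicates, against 1.88, 2.48 and 2.40 on corn oil replicates. It was the 1 probe with a difference above 0, at 0.18 ± 0.21 (adjusted p = 0.632), and its groups overlapped. Its 95% interval ran from -0.33 to 0.70, so that it spans lower and higher levels; after spike-in scaling the difference was -0.14, and relative to the median of all probes it was 0.18 on that scale too.

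Cyp27b1, the enzyme that makes the hormonal form of vitamin D, was lower on all 3 treated arrays. Its probe (A_43_P12926) had levels of -2.77, -2.19 and -2.07 on treated replicates, against -1.62, -1.39 and -1.75 on corn oil replicates. The lowest corn oil array lay above the highest treated one, and treated replicate 1 was the lowest of all, unlike for Slc8a1. The difference was -0.76 ± 0.21 (SE, limma, n = 3 per group; 1.69-fold lower; adjusted p = 0.179), -0.66 with a block for slide, -0.49 after normexp background correction, and between -0.90 and -0.54 when single arrays were left out.

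Cyp24a1, the enzyme that degrades vitamin D and a classical target gene of its receptor, spread widely among treated animals. Probe 1 (A_43_P19543) had levels of 2.17, -0.22 and 1.26 on the treated arrays in replicate order, against 1.34, 1.49 and 2.06 on corn oil replicates. Treated replicate 1 was above all corn oil arrays and treated replicate 2 far below them, and probe 2 gave the same picture, with 0.06, -2.37 and -0.87, against -0.55, -0.77 and 0.06. The SD within the treated group was 1.20 for probe 1 and 1.23 for probe 2, against 0.38 and 0.43 within the corn oil group. The differences were -0.56 ± 0.58 and -0.64 ± 0.60 (SE, limma; adjusted p = 0.590 and 0.548). Without treated replicate 2 they were 0.084 and 0.016, and without treated replicate 1 they were -1.11 and -1.20, so that the sign rested on that 1 array.

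Vdr, the vitamin D receptor, followed the same order among treated animals. Probe 1 had 0.71, -0.20 and 0.17 on treated replicates, against 0.16, 0.73 and 0.51 on corn oil replicates, and probe 2 had -1.42, -2.29 and -1.86, against -1.69, -1.45 and -1.52. Treated replicate 2 was the lowest array on both probes, and treated replicate 1 lay within the corn oil range on probe 1 and above it on probe 2. The differences were -0.24 ± 0.26 and -0.30 ± 0.22 (SE, limma; adjusted p = 0.602 and 0.443), and -0.03 and -0.09 without treated replicate 2. Casr had 3.62, 3.07 and 3.59 on treated replicates, against 3.47, 3.46 and 3.43 on corn oil replicates, on probe 1, with a difference of -0.03 ± 0.16. Here too treated replicate 2 was the lowest array, and without it the difference was 0.15. Median scaling also turned the sign of this near-zero value, to 0.0019. Probe 2 of Casr had 1.09, 0.58 and 1.04 on treated replicates, against 1.23, 1.05 and 1.19 on corn oil replicates, a difference of -0.25 ± 0.16 (adjusted p = 0.377, limma). Treated replicate 2 also had the fewest probes well above background (37990) of the 6 arrays, and the part of that in these values was not tested.

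**Figure D3:**
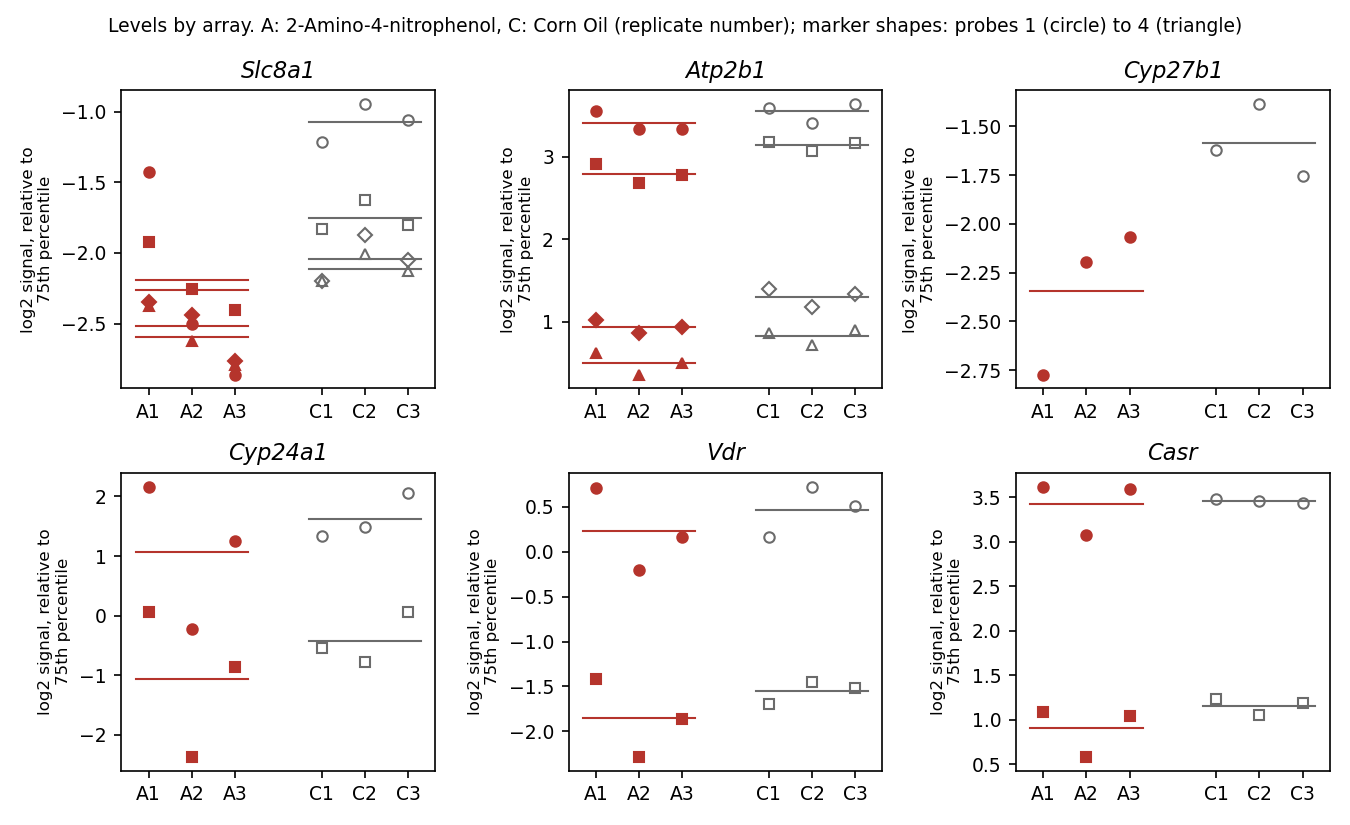
Log2 level relative to the 75th percentile of the array (y axis) of 6 genes on treated arrays (A, filled) and corn oil arrays (C, open); the number is the replicate, each marker shape is a probe, and each line is the mean of 3 arrays. Slc8a1, Atp2b1 and Cyp27b1 are lower on treated arrays, apart from probe 1 of Atp2b1, whose groups overlap, whereas Cyp24a1, Vdr and Casr have their lowest value on treated replicate 2.

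The 300 bases around the annotated transcript start of the 3 genes with probes at an unadjusted p under 0.05 are shown (RefSeq, GRCr8). Each window holds 250 bases before and 50 after that start, 5′ to 3′ on the strand of the gene. Whether transcripts in renal cortex begin there was not tested. Of the 9 genes with a probe, 6 had such a window. Capitals mark matches, on either strand, to any of 7 motifs: the half-sites AGGTCA and GGTTCA of the vitamin D receptor element, the direct repeat of AGGTCA with 3 spacer bases, the GC box GGGCGG, the TATA box TATAAA, the core TGACNNNGC of the antioxidant response element bound by NRF2, and the cyclic AMP response element TGACGTCA.
Slc8a1, chr6:19023309-19023608, + strand: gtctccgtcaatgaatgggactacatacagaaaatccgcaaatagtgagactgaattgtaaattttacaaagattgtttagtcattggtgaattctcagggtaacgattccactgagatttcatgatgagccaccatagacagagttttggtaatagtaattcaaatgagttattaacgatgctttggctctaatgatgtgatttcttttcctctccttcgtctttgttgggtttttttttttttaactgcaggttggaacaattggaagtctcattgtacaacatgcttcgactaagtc
Atp2b1, chr7:35622211-35622510, + strand: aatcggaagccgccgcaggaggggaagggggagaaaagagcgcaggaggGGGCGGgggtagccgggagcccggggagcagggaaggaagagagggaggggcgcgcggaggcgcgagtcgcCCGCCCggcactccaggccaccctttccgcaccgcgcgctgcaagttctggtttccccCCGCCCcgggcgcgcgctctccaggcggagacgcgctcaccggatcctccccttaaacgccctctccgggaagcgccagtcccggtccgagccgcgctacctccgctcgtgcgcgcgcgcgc
Cyp27b1, chr7:64756376-64756675, + strand: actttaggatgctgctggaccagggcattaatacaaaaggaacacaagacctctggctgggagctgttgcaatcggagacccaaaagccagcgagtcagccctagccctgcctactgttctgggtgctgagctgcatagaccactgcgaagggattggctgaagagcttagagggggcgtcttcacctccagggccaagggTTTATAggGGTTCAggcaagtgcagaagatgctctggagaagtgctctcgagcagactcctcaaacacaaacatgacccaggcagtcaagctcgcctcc

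The 3 windows shared none of the searched motifs. Atp2b1 had 3 GC boxes in a window of 74.3% GC, and the GC box was found in 33.1% of 33469 promoters of the same length. Cyp27b1 had 1 match to GGTTCA, which 11.7% of promoters hold, and 1 match to TATAAA on the opposite strand, which 14.2% hold, and no overlap between them. Slc8a1 had no match to any of the 7 in a window of 36.3% GC, against a median of 51.7% GC. Whether that window is a promoter of Slc8a1 in the kidney was not tested. Its GC share and its lack of matches therefore describe the window alone, not a promoter of the gene. AGGTCA was found in 16.2% of promoters, TGACNNNGC in 12.1% and TGACGTCA in 1.83%, and none of these was in the 3 windows. Of the other 3 windows, Casr held 1 AGGTCA on the opposite strand, Vdr held 1 GGTTCA on the opposite strand and 2 GC boxes, and Trpv5 held none of the 7. Such matches describe the letters in a window and do not show that a factor binds.

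Genes around these pathways were described from 7 lists of 85 genes, of which 70 were measured, each by its brightest kept probe. None passed at an adjusted p under 0.05 (limma; 0% of 11748 genes), and the lowest adjusted p was 0.131. At an unadjusted p under 0.05, 10 of the 70 were higher, against 12.9% of genes, and 10 were lower, against 6.66%. Their groups did not overlap for 13 as higher, against 20.1% of genes, and for 14 as lower, against 10.1%. The median difference over the 70 was -0.03, against 0.04 over all genes, and 38 of the 70 lay below 0, against 42.6% of all genes.

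Genes of calcium entry and its regulation had a median difference of 0.21 over 12 measured members, with 5 above and 2 below 0 at an unadjusted p under 0.05. The 2 below 0 were Wnk4 (-0.38 ± 0.12) and Calb2 (-0.55 ± 0.18), each with groups that did not overlap (SE, limma). Another probe of Wnk4 had -0.05. Bspry, a protein that binds Trpv5 and lowers channel activity in cell studies of other mammals, had levels of 3.35, 3.43 and 3.37 on treated replicates, against 2.85, 2.97 and 2.97 on corn oil replicates, a difference of 0.46 ± 0.09 (SE, limma; adjusted p = 0.132). All 3 of its other probes were also above 0, at 0.19 to 0.30. S100a10, which with annexin helps bring Trpv5 to the membrane, had 0.43 ± 0.12 (adjusted p = 0.182, limma). Trpv6, the close relative of Trpv5, had -4.11, -4.16 and -4.04 on treated replicates, against -5.29, -4.67 and -4.38 on corn oil replicates, without overlap (0.68 ± 0.23, adjusted p = 0.199, limma); it was chosen after its values were seen. Its difference was opposite in sign to that of both Trpv5 probes, and the contrast between the genes was not tested. The Trpv6 signal was low, like that of Trpv5 probe 2, whose difference went from -0.57 to -0.068 after normexp background correction. How the Trpv6 difference depends on the processing was not examined.

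Other calcium pumps and exchangers had a median of -0.16 over 6 members, with 0 above and 1 below 0 at an unadjusted p under 0.05. Atp2c1, a calcium and manganese pump of the Golgi, had -0.23 ± 0.09 (adjusted p = 0.229, limma). Atp2b2 and Atp2b3, plasma membrane pumps of the same family as Atp2b1, had -0.38 ± 0.21 and -0.63 ± 0.43. For Atp2b3, treated replicate 2 was the outlying array, at -1.15 against 0.59 and 0.17 on the other treated arrays, and the difference without it was -0.12. Genes of intracellular calcium release and store refilling had a median of 0.01 over 12 members, with 0 above and 1 below 0. That gene, Itpr2, an inositol trisphosphate receptor, had -0.42 ± 0.17, and its 3 other probes were below 0 as well. Orai1, a plasma membrane channel for store refilling, had 0.26 ± 0.11, and Micu2, a regulator of the mitochondrial calcium uniporter, 0.30 ± 0.14; both were below 0 after spike-in scaling.

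Magnesium genes had a median of -0.0036 over 10 members, 3 above and 1 below 0 at an unadjusted p under 0.05. Slc41a3, a magnesium transporter of the distal convoluted tubule, had -2.57, -2.67 and -2.68 on treated replicates, against -3.05, -3.72 and -3.30 on corn oil replicates, with no overlap (0.72 ± 0.17, adjusted p = 0.167, limma). Pcbd1, a cofactor of the transcription factor HNF1, and Fxyd2, the gamma subunit of the sodium pump, had 0.37 ± 0.11 and 0.35 ± 0.12, but 0.077 and 0.069 after quantile normalization and 0.055 and 0.032 after spike-in scaling. Paracellular claudin genes had a median of 0.15 over 5 members, and 0 were past an unadjusted p of 0.05. Cldn16, a claudin of the thick ascending limb needed for calcium and magnesium reabsorption, had 0.35 ± 0.20, Cldn10, a claudin of the same segment, had 0.43 ± 0.28, and Cldn2, a cation pore of the proximal tubule, had -0.14 ± 0.12.

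Genes of vitamin D uptake, metabolism and receptor partners had a median of -0.23 over 13 members, 2 above and 3 below 0 at an unadjusted p under 0.05. Lrp2, megalin, the proximal tubule receptor that takes up vitamin D bound to its carrier protein, had levels of 6.06, 5.89 and 6.03 on treated replicates, against 6.43, 6.20 and 6.36 on corn oil replicates. No treated array reached the corn oil range, and the difference was -0.34 ± 0.10 (SE, limma; adjusted p = 0.190), with -0.64 from its other probe. Dab2, an adaptor that works with megalin in endocytosis, had -0.40 ± 0.11 (adjusted p = 0.175) and -0.56 from its other probe. Dhcr7, which turns the precursor of vitamin D into cholesterol, had 2.16, 1.95 and 2.24 on treated replicates, against 1.38, 1.61 and 1.51 on corn oil replicates, a difference of 0.62 ± 0.12 (adjusted p = 0.131).

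Genes of calcium hormone signalling had a median of -0.10 over 12 members, with 0 above and 2 below 0 at an unadjusted p under 0.05. Kl, klotho, the partner of the receptor for the phosphate hormone FGF23, had 1.63, 1.58 and 1.62 on treated replicates, against 1.97, 1.96 and 1.86 on corn oil replicates. The spread within each group was small, and the difference was -0.32 ± 0.09 (SE, limma; adjusted p = 0.176), with -0.38 from its other probe. Pth1r, the parathyroid hormone receptor, had -0.24 ± 0.09 (adjusted p = 0.224). Gnas, the stimulatory G protein subunit that acts below that receptor, had 0.21 ± 0.09 from its brightest probe, but -0.66 and 0.02 from the others, and its sign turned after quantile normalization and spike-in scaling.

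**Figure D4:**
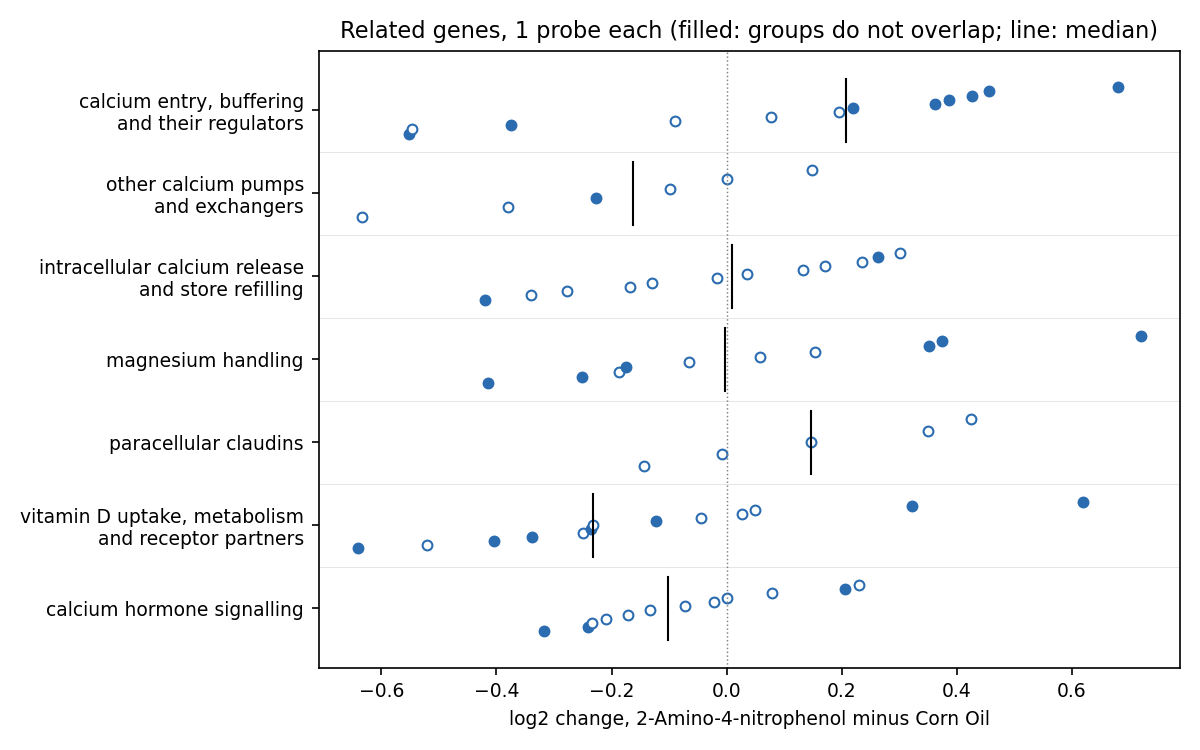
Difference between treated and corn oil arrays in log2 signal (x axis) of the measured genes in each of 7 lists, 1 probe per gene; filled points are genes whose groups do not overlap, and the line is the median of the list. The list medians lie between -0.23 and 0.21, and genes on either side of 0 occur in every list.

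Some markers of the tubule segment that holds the calcium transport genes had lower values as well. Of the 6 listed markers of distal convoluted and connecting tubule other than the 10 genes, 3 were measured, each by its brightest probe. All 3 had differences below 0: -0.53 ± 0.16 for the thiazide-sensitive cotransporter Slc12a3, -0.38 ± 0.12 for the kinase Wnk4 and -0.09 ± 0.12 for Tmem52b (SE, limma). Another probe of Wnk4 had -0.05. Pvalb was well above background on 1 array, and Emx1 and Klhl3 were not matched. Slc41a3, named above as a transporter of the distal convoluted tubule, was not among the listed markers and went the other way, at 0.72 ± 0.17. The mean log2 level of the 3 measured markers was 2.78, 2.52 and 2.54 on treated replicates, against 3.01, 2.95 and 2.87 on corn oil replicates, without overlap. The mean over 6 principal cell markers was 4.03, 3.95 and 3.66, against 4.03, 4.20 and 4.11, and that over 4 erythroid markers was 5.60, 4.37 and 4.91, against 3.72, 3.35 and 3.54. The mean over 7 proximal tubule markers, the segment of Cyp27b1, was 5.29, 5.25 and 5.41, against 4.88, 4.88 and 4.77. Slc22a7 (2.39) and Slc7a13 (1.21) carried this mean, the other 5 had differences between -0.50 and 0.19, and the median of the 7 was 0.14. The 3 measured markers of the thick ascending limb, the segment named for Casr, had a median difference of 0.35, with 1 below 0. The 5 intercalated cell markers had a median of 0.20, with 1 below 0. The part of all these markers in the differences above was not tested.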

How the data were processed

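Total RNA from renal cortex was labelled with Cy3 and hybridised to Agilent arrays, per the labels. Per the file headers, the deposited spot intensity was extracted, background-subtracted and detrended with Agilent Feature Extraction 10.7.1.1 (10.7 per the submitters' processing notes), and the deposited flags mark probes well above background, saturated or outlying. The authors' deposited value table holds a ratio, each intensity divided by its array's 75th percentile; each column fitted a different replicate's scanner file within its group (SD of the log2 difference 0.0003 or 0.0004), so replicate numbers follow the scanner files, and the table served as an alternative only.

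Here, the log2 intensity was centred on the 75th percentile of each array's non-control probes, 64 probes with outlier flags were dropped, and a probe was kept (40894) if at least 1 group had it well above background on its 3 arrays. Genes were named through the probes' RefSeq accessions and the RefSeq table of GRCr8 (27460 probes, 15284 genes). Both groups entered limma 3.58.1 (lmFit, then eBayes; R 4.3.3) with no block, and p-values were adjusted by Benjamini-Hochberg over all kept probes at 0.05. SE is that of limma. The 10 genes, the related lists and the markers were chosen with earlier results of these data known; of each list, the 3 genes with the lowest p were named, except 1 that is not reported here. On simulated data of 40894 probes, 100 probes were changed by 1 or by 2 on the log2 scale. Of these, 49.0% and 78.0% were recovered, with 3 false calls each. The arrays here differ from that setting: 20.7% of all probes had an unadjusted p under 0.05 (limma) and 0 passed. The recovered shares therefore do not give the power of the test on these arrays. Per the labels, each array is of a separate animal. The alternatives are given in the closing section.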

Additional observations from a re-analysis of the deposited data

How the results depend on the processing

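Of the probes tested for the 10 genes (19, or 9 values in the alternatives with 1 value per gene), 0 passed under every alternative run except array weights, which gave treated replicate 3 a weight of 2.90 and treated replicates 1 and 2 weights of 0.37 and 0.35: 7 of the 19 probes (4 of Slc8a1, 3 of Atp2b1), 17 related genes and 8059 of all probes then passed. The count over all probes, 0 in limma, was 4 after normexp background correction, 3 with 1 probe per gene, 2 with trend and robust settings, and 0 to 91 when single arrays were left out (91 without treated replicate 2, 17 without treated replicate 1). The 8 probes lower at an unadjusted p under 0.05 were 5 to 9 when single arrays were left out (5 without treated replicate 3), 6 after normexp background correction, 10 after spike-in scaling, and 6 when slide was a block, which leaves corn oil replicate 2 without weight. Replicate numbers did not pair the arrays (correlations of deviations -0.0008, -0.04 and -0.02 for replicates 1, 2 and 3); with the replicate block 9 of the probes were lower at an unadjusted p under 0.05 and 0 passed.

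Signs turned for these values, none of which passed. Casr probe 1 had 0.0019 after median scaling and 0.089 with array weights, and ranged over -0.13 to 0.15 when single arrays were left out, with 0.15 without treated replicate 2. Cyp24a1 ranged over -1.11 to 0.084 (probe 1) and -1.20 to 0.016 (probe 2), highest without treated replicate 2. S100g had -0.14 after spike-in scaling and ranged over -0.0025 (without corn oil replicate 1) to 0.33. After spike-in scaling Orai1 had -0.057, Micu2 -0.018 and Gnas -0.11; Gnas had -0.095 after quantile normalization and -0.15 as a mean over probes. The causes were not tested, except that spike-in scaling shifts all probes alike.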
